A study of Mus musculus with 18 samples.

Results

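Mucins and cell-surface lipids of the colon carry sugar chains that are built one sugar at a time by glycosyltransferases in the Golgi. The chain on a mucin begins with N-acetylgalactosamine on serine or threonine, is extended and branched into cores, and is closed by terminal sugars, chiefly sialic acid and fucose. Sialyltransferases differ in the sugar they add sialic acid to, and the finished chains form the gel and the cell coat that separate the colon epithelium from its bacteria.

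This account covers 8 genes of this machinery, the sialyltransferases Siat7f (now named St6galnac6), St3gal6, St6gal1, St3gal4 and St8sia5, the O-glycan enzymes C1galt1 and Gcnt3, and the fucosyltransferase Fut2. Every probe that the array's table files under one of these symbols was taken, which gave 10 of the 45281 probes. Of these, 9 were bright enough to be tested and are among 21938 tested probes. The tenth, a probe of St6gal1, was detected on 0 of 18 arrays and stayed between 4.30 and 4.70 on the log2 scale. The 8 genes were chosen by earlier results of these same arrays, and which contrast brought in which gene was not recorded. Their values are therefore a description in every contrast. No p is given for them, and whether a member is called says only on which side of the study's thresholds it lies in the values that chose it. Tests are read only for the other glycosylation genes and, as counts that passed, for markers of cell types.

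The epithelial cells of the colon came from a cell sort of wild-type (WT) mice and of Mbd2KO mice, which lack Mbd2, a protein that reads DNA methylation by binding methylated CpG. The mice were naive or had, by the study's methods, 2% DSS (dextran sulphate sodium) in their drinking water for 6 days, which damages the mucosa and inflames the colon. This gave the groups naive WT, naive Mbd2KO, DSS-treated WT and DSS-treated Mbd2KO, with 4 samples each on 18 arrays. Arrays 4R and 5R were taken as second arrays of samples 4 and 5 and averaged with them, though the labels do not explain the R. A figure legend of the study counts 5 biological replicates per genotype for these cells. By the study's methods the mice were on a C57BL/6 background and aged 8 to 22 weeks, the deletion was present in all tissues, WT controls were littermates, co-housed where possible, and the sort kept EpCAM+ cells without CD45. The series' description says that a replicate could pool 1 to 5 mice, and the study's methods allow larger pools. The spread between samples is therefore partly the spread between pools, and p-values measure only the spread between these samples.

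Levels are given as background-corrected, quantile-normalized log2 signal of a probe. A level compares samples for one probe and does not rank one gene against another. Differences are on the same log2 scale with their standard error (SE), and group means with the SD of 4 samples. A probe was called when the adjusted p of its contrast, computed over all 21938 probes, was under 0.01 and the absolute log2 difference was 1 or more, which are the thresholds of the study. Samples are listed in the order of their numbers, 9 to 12 for naive WT, 13 to 16 for naive Mbd2KO, 1 to 4 for DSS-treated WT and 5 to 8 for DSS-treated Mbd2KO.

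Each array detected 18851 to 20618 probes, or 41.6% to 45.5% of the total. All 10 epithelial identity markers were detected on every array, and their mean lay between 11.70 and 11.98 in each sample. The single Mbd2 probe was detected on 0 of 18 arrays, so the genotype labels could not be checked with it. Transcripts of other cell types were present as well. Of the 8 smooth muscle markers, 6 were detected on every array, as were all 8 fibroblast markers, 6 of 8 endothelial markers and 6 of 9 myeloid markers. Of 7 neutrophil markers on the array, 0 were detected on every array, but S100a8 was detected on 11, S100a9 on 10, Csf3r on 11 and Retnlg on 9 of 18 arrays. Stromal and myeloid RNA was thus in the sorted fraction. In bulk RNA of this kind, fewer cells of a type and less RNA per cell cannot be told apart.

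Samples 2 and 4, both DSS-treated WT, stood apart in how evenly transcripts were read along their length. For 1161 transcripts with tested probes at least 1000 bases apart, the upstream probe was set against the downstream probe and centred over the 16 samples. The median of this balance was -0.40 in sample 2 and -0.25 in sample 4. It lay between -0.07 and 0.10 in 13 other samples and at 0.27 in sample 15, a naive Mbd2KO sample. Some results that rest on samples 2 and 4 are given with and without them, and the marker counts and means only with them.

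The array reads transcripts with probes of 50 bases. The sequences of the Siat7f probe, of an upstream probe that the table files under the newer symbol St6galnac6, and of the St3gal6 probe are shown because the DSS contrasts turn on them. They are printed whole, 5′ to 3′ in the sense of the transcript, with no part marked.
Siat7f, transcript bases 1003 to 1052: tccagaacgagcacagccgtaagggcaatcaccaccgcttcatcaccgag
St6galnac6, transcript bases 508 to 557: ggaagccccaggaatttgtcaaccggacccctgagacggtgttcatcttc
St3gal6, transcript bases 1351 to 1400: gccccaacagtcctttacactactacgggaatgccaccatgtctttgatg
The table places the St6galnac6 probe on the plus strand of chromosome 2, bases 32470500 to 32470549, and the St3gal6 probe on the minus strand of chromosome 16, bases 58472429 to 58472478. It names no genome build for these positions and gives none for the Siat7f probe.

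Siat7f, which encodes an enzyme that adds sialic acid to the N-acetylgalactosamine of gangliosides and related chains, had the widest spread of group means of the members, 2.80. In naive WT mice its signal was 9.86, 8.17, 9.70 and 7.86, and in naive Mbd2KO mice it was 8.59, 8.52, 9.81 and 8.42. In DSS-treated WT mice it was 7.65, 4.78, 6.61 and 5.34, and in DSS-treated Mbd2KO mice 8.86, 8.29, 8.65 and 8.08. The DSS-treated WT samples were the 4 lowest of all 16 and did not overlap with any other group, while the other groups overlapped with each other. Sample 2 was not above background for this probe (detection p-value 0.0983), and the other DSS-treated WT arrays were.

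The group means for Siat7f were 8.90 ± 1.03 in naive WT, 8.84 ± 0.655 in naive Mbd2KO, 6.10 ± 1.29 in DSS-treated WT and 8.47 ± 0.347 in DSS-treated Mbd2KO mice. With DSS, WT mice were lower than naive WT mice by a difference of -2.80 (SE 0.548), a 6.97-fold difference, which was called. Mbd2KO mice with DSS differed from naive Mbd2KO mice by -0.37 (SE 0.548). DSS-treated Mbd2KO mice stood 2.37 (SE 0.548) above DSS-treated WT mice, a 5.19-fold difference that was not called. The 6.97-fold and 5.19-fold values rest partly on sample 2, which was at background. The difference between both genotype effects was 2.44 (SE 0.775), or 1.40 without samples 2 and 4, and was not called in either case.

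**Figure D1:**
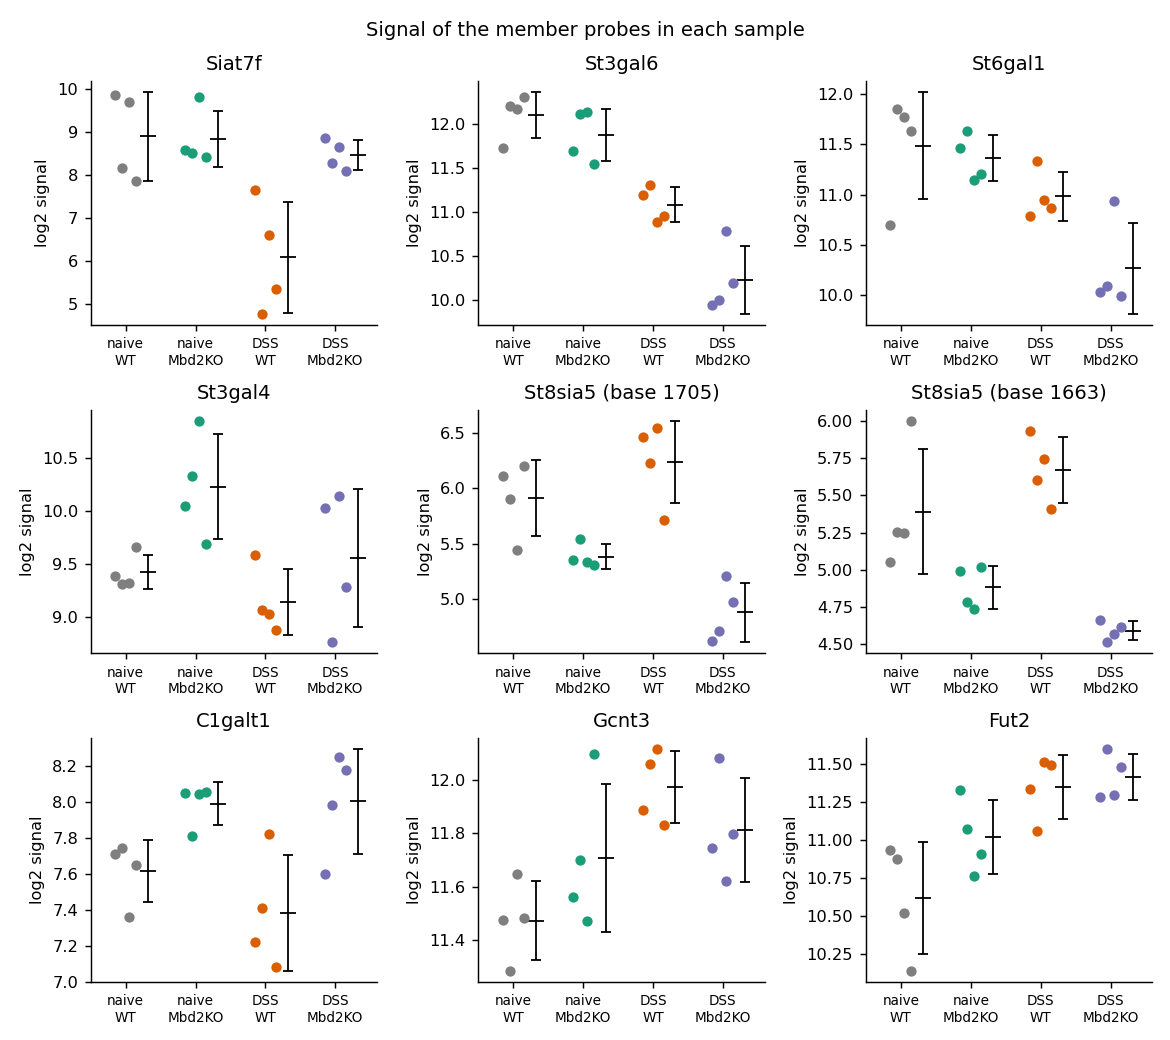
Log2 signal (vertical axis, each panel on its own scale) of the 9 tested member probes in the 16 samples, by group. Points are samples, and the black bar beside them is the group mean with the SD of 4 samples. The 4 DSS-treated WT samples of Siat7f sit between 4.78 and 7.65, below the other groups, and both St8sia5 probes are lowest in DSS-treated Mbd2KO mice.

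The called difference of Siat7f depended on single samples. It stood at -2.36 without sample 2, at -2.55 without sample 4, at -2.48 without sample 9 and at -2.53 without sample 11, and was called in none of these settings. With samples 2 and 4 both left out it was -1.77 and not called. The difference between genotypes under DSS was then 1.34 in place of 2.37. That difference was called at 2.89 without sample 1 and at 2.60 with the 18 arrays taken as separate replicates.

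The table holds 3 more probes of the same gene under the symbol St6galnac6, and their differences were not alike. The probes also differ in the transcript variants they read, so position and variant cannot be told apart. The probe that starts at base 508 differed by -2.02 (SE 0.478) between DSS-treated and naive WT mice and by 1.87 (SE 0.478) between DSS-treated Mbd2KO and WT mice. It was detected on 3 of 5 arrays of DSS-treated WT mice, with the array of sample 2 and 1 of the arrays of sample 4 at background, so the group mean lies partly at the floor. The probe at base 8, specific for one transcript variant, gave -1.75 (SE 0.427) and 1.27 (SE 0.427). The most downstream probe, at base 2317 and shared by all variants, gave -0.80 (SE 0.149) and 0.31 (SE 0.149). These starts are counted on different records of the gene. With samples 2 and 4 left out, the DSS difference in WT mice was -1.56 for the probe at base 508, -1.36 for the probe at base 8 and -0.87 for the probe at base 2317. With samples 2 and 4 left out, the genotype difference under DSS was 1.34 for the Siat7f probe, 1.41 for the probe at base 508, 0.88 for the probe at base 8 and 0.37 for the probe at base 2317. The downstream probe thus showed a lower level with DSS in WT mice, with groups that did not overlap, but a genotype difference under DSS of 0.31 where the Siat7f probe showed 2.37.

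The Siat7f signal moved with the balance of upstream and downstream probes. Samples 2 and 4 had the lowest 2 values of both measures among the 16 samples. Sample 15 had the highest balance, at 0.27, and the second highest Siat7f signal, at 9.81. In naive WT mice, samples 9 and 11 had a balance of 0.09 and 0.06 with a Siat7f signal of 9.86 and 9.70, and samples 10 and 12 had -0.07 and -0.02 with 8.17 and 7.86. DSS-treated WT sample 1 had a balance of 0.08, inside the range of the DSS-treated Mbd2KO samples of 0.05 to 0.10, and its Siat7f signal of 7.65 was below theirs. DSS-treated WT sample 3 and naive WT sample 10 had a similar balance, -0.05 and -0.07, with a Siat7f signal of 6.61 and 8.17. The downstream probe at base 2317 lay between 7.83 and 9.11 in all 16 samples. What part the balance had in the Siat7f differences was not tested.

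**Figure D2:**
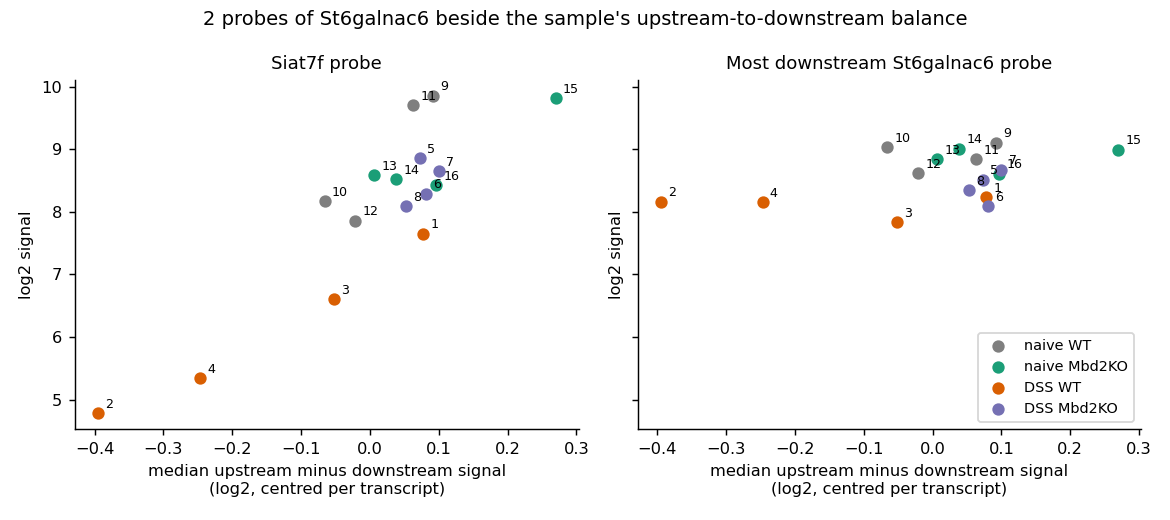
Log2 signal of the Siat7f probe (left) and of the most downstream St6galnac6 probe (right) against the median difference between upstream and downstream probes of 1161 transcripts (horizontal axis, log2, centred per transcript). Each point is one of 16 samples, labelled by its number. Samples 2 and 4 lie lowest on the left, at 4.78 and 5.34, and stand at 8.16 for the downstream probe.

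The genes whose profile over the 16 samples came nearest to that of the Siat7f probe were Slc39a5, a zinc transporter, Ybx3, a nucleic acid binding protein, and Eef2, an elongation factor of translation. Likeness was measured as the root mean square of the difference between both profiles after centring each on its mean, and was 0.436, 0.506 and 0.587, against 1.39 for the Siat7f profile itself. The probe of Slc39a5 lies at base 3 and differed by -2.30 between DSS-treated and naive WT mice. Probes of Slc39a5 at base 1589 and at base 1956 of another record differed by -0.21 and -0.33. The probe of Ybx3 at base 125 differed by -1.91, and its probes at bases 872 and 1456 by 0.01 and -0.26. A further Ybx3 probe, at base 2498 of another record, differed by 0.56. For Eef2 all 3 tested probes lie between bases 918 and 1106, and the first of them differed by -2.36 and the second by -2.13. For Slc39a5 and Ybx3 the match to Siat7f was thus one of an upstream probe, not of all probes of the gene.

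St3gal6, which adds sialic acid to galactose at the end of lactosamine chains and takes part in making sialyl Lewis antigens, had lower values with DSS in both genotypes. Its signal was 11.73, 12.21, 12.17 and 12.31 in naive WT and 11.70, 12.12, 12.14 and 11.55 in naive Mbd2KO mice. With DSS it was 11.19, 11.31, 10.89 and 10.96 in WT and 9.95, 10.00, 10.79 and 10.19 in Mbd2KO mice. Every DSS-treated sample was below every naive sample, and every DSS-treated Mbd2KO sample was below every DSS-treated WT sample, whereas the naive groups overlapped.

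The difference of St3gal6 between DSS-treated and naive mice was -1.02 (SE 0.193) in WT and -1.64 (SE 0.193) in Mbd2KO mice, a 2.03-fold and a 3.13-fold lower level, and both were called. DSS-treated Mbd2KO mice were below DSS-treated WT mice by a difference of -0.85 (SE 0.193), and naive Mbd2KO mice differed from naive WT mice by -0.23 (SE 0.193). The difference of both genotype effects was -0.62 (SE 0.273). None of these 3 was called. In WT mice the DSS difference lies next to the limit of 1, and it was -0.95 without sample 3, -0.98 without sample 4, -0.98 without sample 10, -0.998 without sample 11 and -0.95 without sample 12, all not called. With samples 2 and 4 left out it was -1.07 and not called. In Mbd2KO mice it was called in every alternative run, at -1.83 to -1.54. The genotype difference under DSS was called at -1.04 when sample 7 was left out.

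Among the profiles nearest to St3gal6 were those of Ano1, a chloride channel, and Esrrg, an orphan nuclear receptor. Their root mean square differences were 0.237 and 0.242, against 0.778 for St3gal6 itself. Ano1 differed by -0.62 between DSS-treated and naive WT mice and Esrrg by -0.94. These genes were chosen for their likeness, so the values describe them and are no test.

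St6gal1, which adds sialic acid to galactose on N-linked chains, had its lowest values in DSS-treated Mbd2KO mice. The detected probe read 10.70, 11.85, 11.77 and 11.63 in naive WT and 11.46, 11.63, 11.14 and 11.21 in naive Mbd2KO mice. With DSS it read 10.79, 11.33, 10.94 and 10.87 in WT and 10.04, 10.09, 10.94 and 9.99 in Mbd2KO mice. Samples 5, 6 and 8 were below all other samples, and sample 7 lay within the range of DSS-treated WT mice. The difference of St6gal1 between DSS-treated and naive Mbd2KO mice was -1.10 (SE 0.244), with groups that did not overlap, and was not called. It was -1.32 and called when sample 7 was left out. The other differences were -0.72 (SE 0.244) between genotypes with DSS, -0.50 (SE 0.244) for DSS in WT mice and -0.13 (SE 0.244) between naive genotypes.

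St3gal4, another enzyme that sialylates terminal galactose, had its highest values in naive Mbd2KO mice. It read 9.39, 9.31, 9.32 and 9.65 in naive WT and 10.05, 10.33, 10.85 and 9.68 in naive Mbd2KO mice, which did not overlap. With DSS it read 9.59, 9.06, 9.03 and 8.88 in WT and 10.02, 8.76, 10.14 and 9.28 in Mbd2KO mice, which did. The naive genotypes differed by 0.81 (SE 0.277) and the DSS-treated ones by 0.41 (SE 0.277), and DSS differed from naive by -0.28 (SE 0.277) in WT and -0.68 (SE 0.277) in Mbd2KO mice. None was called.

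St8sia5, a sialyltransferase of gangliosides known mainly from the nervous system, was dim in all groups and lowest in DSS-treated Mbd2KO mice. It was read by 2 probes that share 8 bases of the transcript and so are not independent. The probe at base 1705 read 6.11, 5.90, 5.44 and 6.20 in naive WT, 5.35, 5.55, 5.33 and 5.30 in naive Mbd2KO, 6.47, 6.23, 6.54 and 5.71 in DSS-treated WT and 4.62, 4.71, 5.21 and 4.98 in DSS-treated Mbd2KO mice. The probe at base 1663 read 5.05, 5.26, 5.25 and 6.00, then 4.99, 4.78, 4.74 and 5.02, then 5.93, 5.61, 5.74 and 5.41, and last 4.66, 4.51, 4.57 and 4.61 in the same order of groups. Both probes put all DSS-treated Mbd2KO samples below every sample of the other groups. The probe at base 1663 was detected on 1 of 4 naive and 0 of 5 DSS-treated Mbd2KO arrays, so the order of these groups there lies at background and is not resolved.

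The probe of St8sia5 at base 1705 differed by -1.36 (SE 0.192) and the probe at base 1663 by -1.08 (SE 0.169) between DSS-treated Mbd2KO and WT mice, and both were called. In DSS-treated Mbd2KO mice the probe at base 1663 was not well above background on any of 5 arrays, so its level there is only a bound, and in naive Mbd2KO mice it was detected on 1 of 4 arrays. Against the lowest signal among detected probes of each array, DSS-treated WT mice were at least 1.65-fold higher, with a mean of 5.67 against a bound of 4.95. The probe at base 1705 was detected on 2 of those 5 arrays and on all arrays of the other groups. Naive Mbd2KO mice were below naive WT mice by -0.53 (SE 0.192) and -0.51 (SE 0.169), and DSS-treated WT mice stood 0.32 (SE 0.192) and 0.28 (SE 0.169) above naive WT mice. None of these was called. The call of the probe at base 1663 was lost without sample 1, at -0.996, and without sample 5, at -1.11, and with samples 2 and 4 left out, at -1.25. The probe at base 1705 was called at -1.63 without samples 2 and 4, and for both probes the call depended on the background correction, as given with the processing limits.

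Most markers of stromal cells moved in the same direction as St8sia5. Between DSS-treated Mbd2KO and WT mice, 5 of 6 tested smooth muscle markers and 5 of 8 endothelial markers were lower at an adjusted p under 0.05 by limma. So were 3 of 8 fibroblast markers, and 0 markers of these lists were higher at that limit. Over all tested probes 3.17% were lower and 2.46% higher. Over the markers detected on every array, the smooth muscle mean lay between 9.64 and 10.22 in DSS-treated WT and between 7.97 and 9.14 in DSS-treated Mbd2KO samples. Endothelial markers lay between 7.08 and 7.76 against 6.13 and 6.68, and fibroblast markers between 8.65 and 9.22 against 7.77 and 8.67. The smooth muscle markers Cnn1 and Synpo2 were detected on 0 of 18 arrays. Of the 10 neuron and glia markers, 7 were tested, 0 passed in either direction in this contrast, and S100b and Elavl4 were detected on 0 of 18 arrays. Of the 9 enteroendocrine markers 0 passed as well, with a median difference of -0.60 between DSS-treated genotypes and -0.58 between naive genotypes. What part these cells had in the St8sia5 difference was not tested.

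C1galt1, the enzyme that makes the core 1 structure on which most mucin chains are built, had higher values in Mbd2KO mice. It read 7.71, 7.74, 7.36 and 7.65 in naive WT and 8.05, 7.81, 8.05 and 8.06 in naive Mbd2KO mice, which did not overlap. With DSS it read 7.22, 7.41, 7.82 and 7.08 in WT and 7.60, 7.98, 8.25 and 8.18 in Mbd2KO mice, where sample 5 and sample 3 overlapped. Mbd2KO mice stood above WT mice by 0.37 (SE 0.165) without DSS and by 0.62 (SE 0.165) with it, or 1.30-fold and 1.54-fold. DSS differed from naive by -0.23 (SE 0.165) in WT and 0.01 (SE 0.165) in Mbd2KO mice. None was called.

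Gcnt3, a branching enzyme of mucin cores, and Fut2, which adds the fucose of the secretor blood group antigens, had higher values with DSS in WT mice. Gcnt3 read 11.47, 11.29, 11.65 and 11.48 in naive WT and 11.89, 12.06, 12.11 and 11.83 in DSS-treated WT mice. In Mbd2KO mice it read 11.56, 11.70, 11.47 and 12.10 without DSS and 11.74, 12.08, 11.62 and 11.80 with DSS. The WT groups did not overlap and the Mbd2KO groups did. The DSS difference of Gcnt3 was 0.50 (SE 0.142) in WT and 0.10 (SE 0.142) in Mbd2KO mice.

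Fut2 read 10.94, 10.88, 10.52 and 10.14 in naive WT and 11.34, 11.06, 11.51 and 11.49 in DSS-treated WT mice. It read 11.33, 11.08, 10.76 and 10.91 in naive Mbd2KO and 11.29, 11.60, 11.30 and 11.48 in DSS-treated Mbd2KO mice. The WT groups did not overlap, and the Mbd2KO groups overlapped through sample 13. The DSS difference of Fut2 was 0.73 (SE 0.173) in WT and 0.40 (SE 0.173) in Mbd2KO mice, and naive Mbd2KO mice stood 0.40 (SE 0.173) above naive WT mice. Between DSS-treated genotypes Fut2 differed by 0.06 (SE 0.173) and Gcnt3 by -0.16 (SE 0.142), smaller than the residual SD between samples of 0.256 and 0.197.

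**Figure D3:**
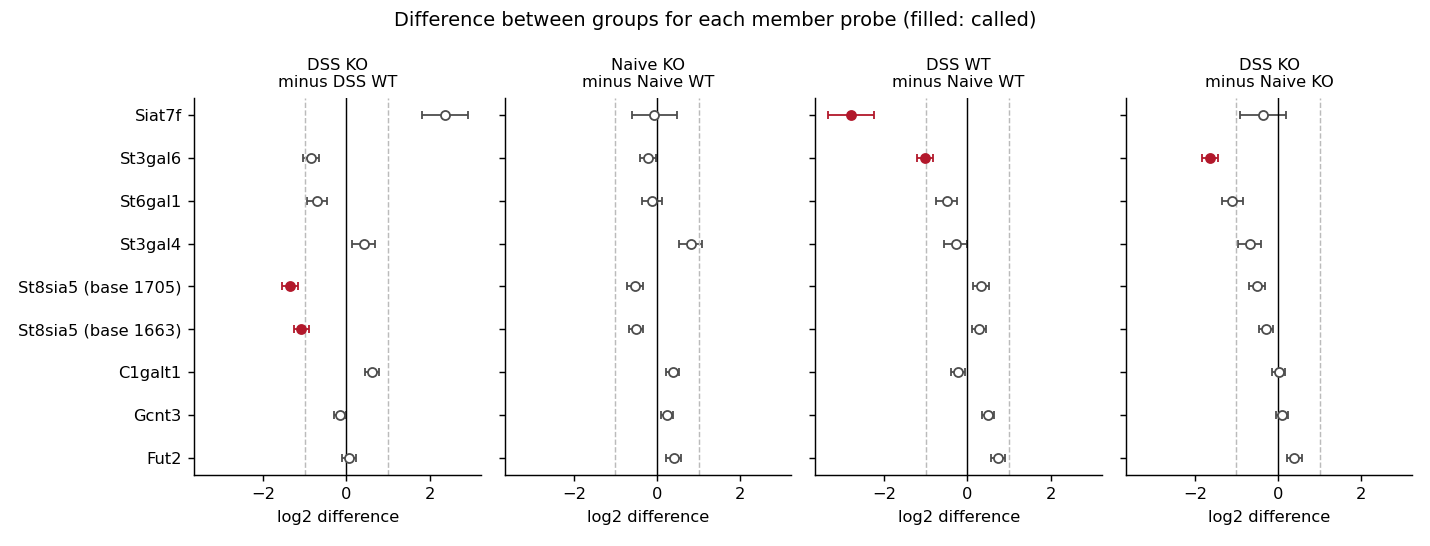
Log2 difference (horizontal axis) of the 9 tested member probes in the genotype contrasts and the DSS contrasts, with 1 SE on each side. Filled red points were called, and dashed lines mark a difference of 1 in each direction. St8sia5 is called in DSS-treated Mbd2KO against WT mice, Siat7f and St3gal6 for DSS in WT mice and St3gal6 for DSS in Mbd2KO mice.

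Of the 9 tested member probes, 2 were called between DSS-treated genotypes, where 0.862% of all tested probes were called. Between naive genotypes 0 were called, against 0.656% of all probes. For DSS in WT mice 2 were called, against 1.74%, and for DSS in Mbd2KO mice 1 was called, against 1.72%. For the difference of the genotype effects limma called 0 members and 0% of all probes, and 2339 of the 21938 probes had an unadjusted p under 0.05. Groups that did not overlap were seen for 4 member probes between DSS-treated genotypes (14.7% of all probes), for 3 between naive genotypes (12.3%), for 4 with DSS in WT mice (17% of all probes) and for 4 with DSS in Mbd2KO mice (15.9%). The members were chosen on these contrasts, so nothing is read from these shares. With samples 2 and 4 left out, 1 member probe was called between DSS-treated genotypes and 0 for DSS in WT mice.

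The comparisons between DSS-treated genotypes and of DSS in WT mice share the DSS-treated WT samples, and each naive group likewise serves 2 comparisons, so these differences are not independent of each other. The median difference over the 9 member probes was -0.16 between DSS-treated genotypes, -0.06 between naive genotypes, -0.23 for WT mice with DSS and -0.37 for Mbd2KO mice with DSS. Over all tested probes the medians lay between -0.02 and -0.00108.

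The other genes of sugar chain synthesis were taken from lists of sialyltransferases, fucosyltransferases, enzymes that start, extend or cap O-linked chains, N-glycan enzymes, makers and carriers of sugar donors, sialidases and fucosidases, and mucins. Of 141 such genes, 97 were tested, each by its brightest probe. A gene passed at an adjusted p under 0.05, from limma and over all 21938 probes. For DSS in Mbd2KO mice 21 of the 97 genes passed, where 9.42% of all probes did. Of these 3 rose and 18 fell, against 4.9% and 4.52% of all probes. For DSS in WT mice 15 passed (10.5% of all probes), of which 7 rose and 8 fell (5.71% and 4.75% of all probes).

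Between naive genotypes 6 passed (5.19% of all probes), all 6 higher in Mbd2KO mice and 0 lower (2.43% and 2.77% of all probes). Between DSS-treated genotypes 10 passed (5.63% of all probes), 3 higher and 7 lower in Mbd2KO mice (2.46% and 3.17% of all probes). Muc20 among the 6 and Galnt16 among the 10 were kept by the detection filter only through the group where they are high. Nothing is read from their passing. The median difference over the 97 genes was -0.22 for DSS in Mbd2KO mice, -0.09 for DSS in WT mice, 0.04 between naive genotypes and -0.09 between DSS-treated genotypes.

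With DSS, 7 genes passed in both genotypes, 8 in WT but not in Mbd2KO mice and 14 in Mbd2KO but not in WT mice. For the difference of the genotype effects limma passed 0 of the 97 genes, and 14 had an unadjusted p under 0.05. A gene that passed in one genotype is therefore not shown to differ between genotypes.

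Among the other sialyltransferases, St6galnac2, which sialylates the N-acetylgalactosamine of mucin chains, fell with DSS in both genotypes. Its level was 11.51 ± 0.112 in naive WT and 10.93 ± 0.144 in DSS-treated WT mice, a difference of -0.58 (SE 0.12, adjusted p 0.00759 by limma). In Mbd2KO mice the difference was -0.55 (SE 0.12, adjusted p 0.0108). Both passed in every alternative run. St8sia4, which makes polysialic acid, rose with DSS in WT mice from 5.11 ± 0.358 to 6.48 ± 0.288 (difference 1.37, SE 0.18, adjusted p 0.000464). In Mbd2KO mice the difference was 0.44 (adjusted p 0.151), and the test of the difference between genotypes gave an adjusted p of 0.234. Markers of myeloid cells rose with DSS as well, 6 of 7 tested in each genotype. Of 8 fibroblast markers, 6 rose in WT mice and 0 in Mbd2KO mice. Over all tested probes 5.71% rose in WT and 4.9% in Mbd2KO mice at an adjusted p under 0.05. The part of these cells in the St8sia4 difference was not tested. The other bright sialyltransferase, St3gal3, did not pass in any contrast, with differences from -0.36 to 0.24.

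Of the enzymes that extend O-linked chains, Gcnt2, which branches poly-lactosamine into the I antigen, rose with DSS by nearly the same amount in both genotypes. It went from 7.00 ± 0.343 to 8.23 ± 0.204 in WT mice (difference 1.23, SE 0.19, adjusted p 0.0011) and from 7.02 ± 0.356 to 8.24 ± 0.254 in Mbd2KO mice (difference 1.22, SE 0.19, adjusted p 0.00133). B3gnt7, which extends lactosamine chains, fell with DSS in Mbd2KO mice by 1.88 on the log2 scale (SE 0.39, adjusted p 0.00708). In WT mice its difference was -1.22 (adjusted p 0.055). B3gnt6, which makes the core 3 structure of colonic mucins, fell in Mbd2KO mice by 1.15 (SE 0.26, adjusted p 0.0113), and its difference in WT mice was -0.78 (adjusted p 0.0645). The results of Gcnt2 in both genotypes and of B3gnt7 and B3gnt6 in Mbd2KO mice passed in every alternative run. Of 11 colonocyte markers, 1 rose and 3 fell with DSS in Mbd2KO mice, and of 10 tested goblet cell markers 0 rose and 2 fell. Over all tested probes 4.9% rose and 4.52% fell. What part such cells had in these results was not tested.

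**Figure D4:**
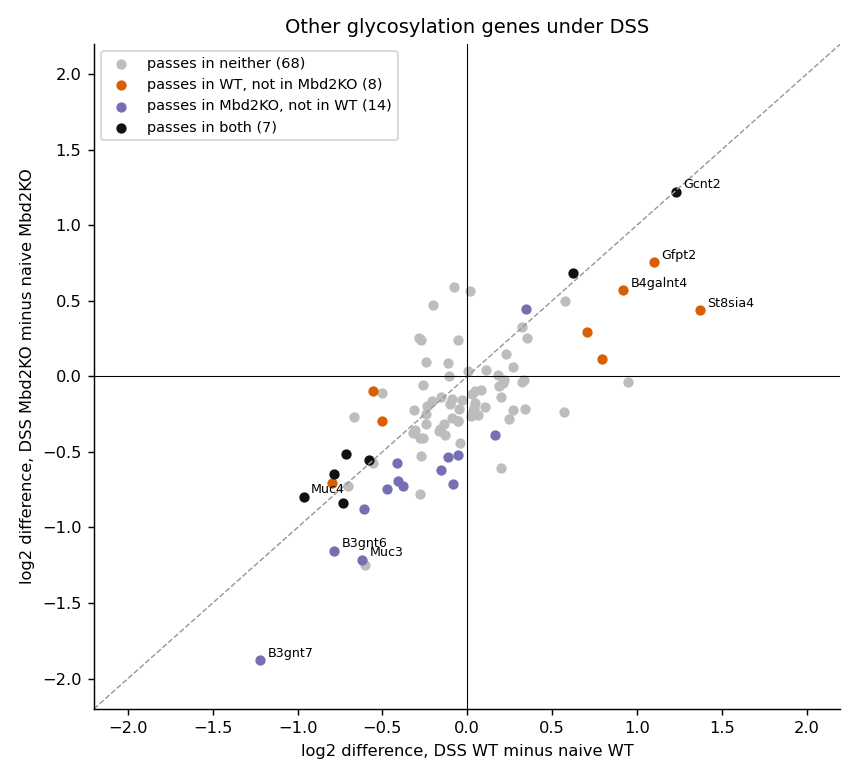
Log2 difference between DSS-treated and naive mice for the 97 other glycosylation genes, in WT mice (horizontal axis) and in Mbd2KO mice (vertical axis). Each point is 1 gene by its brightest probe, coloured by the contrasts in which its adjusted p was under 0.05, with the number of genes in brackets, and the dashed line marks equal differences. Gcnt2 lies near that line at 1.23 and 1.22, and B3gnt7 is lowest at -1.22 and -1.88.

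The brightest mucin probes were those of Muc2 and Muc13. Muc2, the gel-forming mucin of goblet cells, lay between 14.48 and 14.73 in the group means, and Muc13, a membrane mucin, between 14.22 and 14.43. Neither passed in any contrast. Muc3, a membrane mucin of the brush border, fell with DSS in Mbd2KO mice by 1.21 (SE 0.24, adjusted p 0.00467), and in WT mice its difference was -0.62 (adjusted p 0.103). The Muc3 result in Mbd2KO mice passed in every alternative run. Muc1, a membrane mucin, was higher in naive Mbd2KO mice, at 8.84 ± 0.291 against 6.89 ± 0.386 in naive WT mice (difference 1.95, SE 0.25, adjusted p 0.00047). It was also higher between DSS-treated genotypes, by 1.14 (SE 0.25, adjusted p 0.0154), and did not pass there with samples 2 and 4 left out.

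Besides Muc1, the genes higher in naive Mbd2KO mice included B3gnt3, A4gnt, B4galnt2 and Muc20. B3gnt3, an enzyme that extends core 1, differed by 0.63 (adjusted p 0.021), and the cap enzymes A4gnt and B4galnt2 by 0.86 (adjusted p 0.0226) and 0.58 (adjusted p 0.0268). Muc20 was at background on all naive WT arrays and at least 1.36-fold higher in naive Mbd2KO mice. Its probe was kept by the detection filter only through the naive Mbd2KO arrays, where it is high, so no p is read for it. Muc1 passed in every alternative run. B3gnt3 did not pass without sample 10, 11, 13 or 15, A4gnt without sample 10, 12 or 15, and B4galnt2 without sample 10, 12, 14, 15 or 16. The number that passed was 3 without sample 10.

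Between DSS-treated genotypes the number of genes that passed changed with the samples used. Muc1, Muc4 and B3galt4 were higher in Mbd2KO mice, and Muc16, Gfpt1, Gfpt2, Fcsk, Fut4, St8sia4 and Galnt16 were lower. The number was 1 without sample 2, 3 without sample 4 or without sample 8, and between 4 and 6 without sample 3, 5, 6, 7, 9, 10, 13 or 14. With samples 2 and 4 both left out 0 passed, where 8 of all 21938 probes were called instead of 189. The membrane mucin Muc16 differed by -2.09 (SE 0.45, adjusted p 0.0132). Of the 5 arrays of DSS-treated Mbd2KO mice, 2 detected it, so that group mean lies partly at the floor. Over the alternative runs the difference ranged from -2.44 to -0.91. Without sample 2 Muc16 differed by -1.72 and did not pass. Galnt16 was near background, detected on 4 of 5 arrays of DSS-treated WT mice and on 1 of 5 of DSS-treated Mbd2KO mice. It was kept by the detection filter only through the DSS-treated WT arrays, where it is high, so nothing is read from its passing. It passed in 5 of 25 alternative runs. In this same contrast the mean over the stromal markers detected on every array was lower, 8.66 against 9.88 for smooth muscle. It was 6.43 against 7.44 for endothelium and 8.24 against 8.98 for fibroblasts. Not every marker given beside St8sia5 passed, and the part of these cells in these results was not tested.

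Other results for DSS in Mbd2KO mice that passed in every alternative run were those of Man1a2, a mannosidase that trims N-linked chains, and Abo, the blood group transferase. Man1a2 fell by 0.73 (SE 0.12, adjusted p 0.00199) and Abo by 0.69 (SE 0.15, adjusted p 0.0104). Of 21 genes that passed for DSS in Mbd2KO mice, 7 did so in every alternative run, and of 15 for DSS in WT mice, 3 did. The number for DSS in Mbd2KO mice was 13 without sample 6 or without sample 8. With samples 2 and 4 left out, the number for DSS in WT mice was 3.

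The 2 brightest genes of each remaining list gave the following. The fucosyltransferase Fut4 fell with DSS in Mbd2KO mice by 0.75 (SE 0.18, adjusted p 0.0154), a result lost without sample 14, and Fut8 did not pass, with differences from -0.29 to 0.09 in the genotype and DSS contrasts. Galnt2 and Galnt10, which start O-linked chains, did not pass in any contrast, nor did B3galt5, Gal3st2, Mgat4b, Man1b1, the GDP-fucose carrier Slc35c1 or the GDP-fucose synthase Gfus. Gal3st2, a sulphotransferase, differed by -1.25 for DSS in Mbd2KO mice with an SE of 0.49 (adjusted p 0.12). The sialidase Neu1 did not pass, and Neu2 fell with DSS by 0.71 in WT mice (adjusted p 0.00454) and by 0.52 in Mbd2KO mice (adjusted p 0.0285). The Neu2 result in WT mice did not pass with samples 2 and 4 left out, and that in Mbd2KO mice did not pass without sample 5, 8, 15 or 16.

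Mbd2 binds methylated CpG, so the number of CG letters near the start of each gene is given as a description. RefSeq windows of 300 bases around gene starts, on GRCm38.p6, were at hand for 5 of the 8 genes, with 8 windows among them. The letters CG, which read the same on both strands, occurred 2 times in the window of St6galnac6, fewer than in most of the 32851 windows, whose median is 7 and of which 94.6% hold at least 1. They occurred 52 times for C1galt1, more than in 99.4% of all windows, 31 times for St3gal4, 20 and 3 times for the 2 windows of St3gal6, and 6 to 10 times for the 3 windows of St6gal1. Methylation was not measured on these arrays.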

How the data were processed

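RNA of sorted colon epithelial cells was hybridised to 1-colour mouse BeadChips. Per the file headers the deposited intensity of each probe is the mean over its beads, exported without normalization, with a detection p-value against negative control probes deposited beside it, and the deposited bead number and bead standard error served only to describe precision (18 to 74 beads per array for the member probes). By the labels the authors processed their arrays with lumi and limma, and no versions are given in the sources used here. Another 36 columns, which count arrays per signal or give their SD, were not used.

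With limma 3.58.1 in R 4.3.3, intensities were corrected against 936 negative control probes by normexp, an offset of 16 was added, and values were quantile-normalized and turned into log2. Log2 signal is computed here and is not a deposited value. A probe was kept when at least 4 of 18 arrays had it at a detection p-value below 0.05, which left 21938 and took out 23343. The arrays 4R and 5R were averaged with 4 and 5, taking R as a repeat of the same sample. The labels do not explain the letter, and a figure legend of the study counts 5 replicates per genotype. One model with a mean for each of 4 groups was fitted over 16 samples, with moderated variances (12 residual and 4.71 prior degrees of freedom) and Benjamini-Hochberg adjustment over all probes. The script was tested on simulated data. The number of arrays limits the precision.

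The members and gene lists were chosen with earlier results of these data known. Named were all 8 members by every probe and, of each other glycosylation list, the genes past the study's thresholds in any contrast and the 2 brightest by their brightest tested probe, with the 3 nearest profiles for Siat7f and for St3gal6. Some results of this rule are not reported here. Genes named beyond this rule, such as those that passed between genotypes, were chosen after their values were seen. Alternatives were other background corrections, offsets, scalings, filters and models, the repeat arrays kept apart or left out, each sample left out in turn, and samples 2 and 4 left out together, the last chosen after seeing the data. Promoter windows are from RefSeq (GRCm38.p6), and gene symbols were updated through the RefSeq table for 29586 probes by gene number and 2759 by accession, and kept from the file for 12936.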

Additional observations from a re-analysis of the deposited data

Results flagged for a closer look

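Of the member probes, 3 had 1 sample far from the other 3 of its group, measured as the gap to the nearest sample over the range of the group and held against the 95% critical value of Dixon's test for 4 samples. Over the 9 member probes and the 3 further St6galnac6 probes, 48 groups were tested and 3 were past this value, a number that chance alone can give at the 95% level. C1galt1 was lowest in naive Mbd2KO sample 14, at 7.81 with the next sample at 8.05 (ratio 0.96). Siat7f was highest in naive Mbd2KO sample 15, at 9.81 with the next at 8.59 (ratio 0.881), the sample whose upstream probes were brightest relative to downstream ones. St6gal1 was highest in DSS-treated Mbd2KO sample 7, at 10.94 with the next at 10.09 (ratio 0.894).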

How the results depend on the processing

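Of 1146 member values under alternatives, 1128 stayed within 1 SD between samples of the value reported, 18 moved further and 11 had the opposite sign, those of Siat7f between naive genotypes, C1galt1 for DSS in Mbd2KO mice and Fut2 between DSS-treated genotypes. The number of member probes called between DSS-treated genotypes, 2 in the report, was 0 without background correction, 0 with an offset of 50 and 1 with samples 2 and 4 left out, and 1 to 3 when single samples were left out. For DSS in WT mice, 2 in the report, it was 0 without background correction, 0 with samples 2 and 4 left out, and 1 each with a common median, with no filter, with only the groups of the contrast and with an intensity trend and robust prior, and 0 to 2 when single samples were left out. For DSS in Mbd2KO mice, 1 in the report, it was 2 with probes detected on every array, 2 with 18 arrays as separate replicates, and 1 to 2 when single samples were left out. Keeping only probes detected on every array takes out both St8sia5 probes and Siat7f by construction, which leaves 0 and 1 called in the first and second of these contrasts. Without background correction the St8sia5 probes differed by -0.47 and -0.34 between DSS-treated genotypes and with an offset of 50 by -0.79 and -0.55, and Siat7f differed by 1.36 without background correction. The cause was not tested.

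Of the 97 other genes, the number passing between DSS-treated genotypes, 10 in the report, was 3 with no filter, 16 with 18 arrays, 0 with samples 2 and 4 left out and 1 to 11 when single samples were left out. For DSS in Mbd2KO mice, 21 in the report, it was 32 with 18 arrays and 13 to 25 when single samples were left out. For DSS in WT mice, 15 in the report, it was 3 with samples 2 and 4 left out, where fewer samples enter, and between naive genotypes 3 to 9 when single samples were left out. Over all probes 189, 144, 382 and 377 were called between DSS-treated genotypes, between naive genotypes, for WT mice with DSS and for Mbd2KO mice with DSS. These became 49, 57, 85 and 119 without background correction, 109, 96, 186 and 215 with an offset of 50, 86, 90, 256 and 227 with no filter, and 420, 190, 508 and 523 with 18 arrays. Between naive genotypes 39 were called with only those groups, and for DSS in WT mice 129 with samples 2 and 4 left out. With single samples left out, the 4 counts ranged over 46 to 216, 73 to 279, 233 to 477 and 181 to 461. The first was 46 without sample 5, 54 without 2, 93 without 8 and 108 without 4, the second 73 without sample 10, 83 without 15 and 279 without 16, the third 233 without sample 4 and 248 without 3, and the fourth 181 without sample 14, 186 without 8, 194 without 5 and 237 without 16. No paired analysis was possible because the groups share no replicate numbers. The slide as a block was not run, since the headers used here do not name the slide. The setting without samples 2 and 4 was chosen after seeing the data.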
